A study of Mus musculus with 4 samples.

Results

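The ribosomal protein genes, which encode the structural proteins of the cytosolic ribosome, were examined as a group in maps of open chromatin from germ cells of fetal ovaries. They were taken by symbol from the RefSeq gene table of the mouse build GRCm38 (mm10): protein-coding genes named Rpl or Rps with a number and an optional ending a, l, x or p0 to p2, without pseudogenes and without the Rps6k kinases. This gave 81 of 21627 protein-coding genes on the 19 autosomes and X, 51 of the large subunit and 30 of the small subunit. Of these, 4 lie on the X chromosome (Rpl10, Rpl36a, Rpl39 and Rps4x).

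Each ribosome carries one copy of nearly every ribosomal protein, so a cell makes these proteins in matched amounts and in bulk, and the genes are among the most strongly transcribed in growing cells. Their mRNAs belong to the TOP class, which begin with a C followed by an unbroken tract of pyrimidines at the cap, the feature through which the mTOR pathway controls their translation. A few genes have duplicates that arose through reverse transcription of an mRNA or through gene duplication, and some of these duplicates are used mainly in the testis or in muscle. In female mice at this age, germ cells leave mitotic growth and enter meiosis.

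The study used ATAC-seq, in which the Tn5 transposase cuts and tags accessible DNA, on cells of E14.5 (embryonic day) female C57BL/6J ovaries. Gata2flox/+ males carrying Prdm1-Cre were mated with Gata2flox/flox females, and both groups were dissociated with trypsin and enriched with beads against SSEA1, a surface antigen of germ cells, with about 10000 cells per library. The first group, Gata2WT, holds 2 samples. The other, Gata2cKO, holds 2 samples in which floxed Gata2 is deleted by Cre driven from Prdm1, a gene switched on in the germ cell lineage. The cross as described gives no embryo with 2 unfloxed alleles, and the labels do not state which alleles or Cre status the Gata2WT embryos had. The labels call the material ovarian cells, and bead enrichment leaves some cells of other types.

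For each genotype the authors deposited 1 combined peak list, so no value below has a replicate error, no test between the genotypes was made, and every difference between the lists has no replicate check. After rows for the same interval had been merged, the Gata2WT list held 49394 peaks with a median width of 546 bp, and the Gata2cKO list held 44139 with a median width of 542 bp. The number of fragments at a peak's summit, recovered from the deposited values, had a median of 19 in both lists, over a genome background of 2.19 fragments in the Gata2WT pool and 2.01 in the Gata2cKO pool. Gene-end peaks, meaning peaks within 1 kb of a gene's first or last base, were found in both lists at 9 of 10 germ cell marker genes and in the Gata2WT list alone at the remaining 1. Of 7 genes of supporting cells, 4 had them in both lists, 1 in the Gata2WT list alone, and Gata4 and Nr5a1 in neither. Of 3 genes of stromal cells, 1 had them in both lists and 1 in the Gata2WT list alone. In both lists they were also found at 3 of 4 genes of endothelial cells, 2 of 4 of erythroid cells, 2 of 3 of surface epithelium and 0 of 4 of macrophages. Among all protein-coding genes the share in both lists was 62.8%, so a gene-end peak alone does not mark a cell type. In such bulk material a weaker peak can come from fewer cells of a type or from less open chromatin in each cell, and these cannot be told apart. The targeted gene Gata2 had a gene-end peak in the Gata2WT list alone, a weak one with a fold enrichment of 2.22 and a −log10 q of 4.27 (the list median was 6.72). The −log10 q is the log10 of the false discovery rate of a peak's summit, with its sign turned. The Gata2 peak does not test the deletion itself.

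Promoter sequences were available from RefSeq (GRCm38.p6) for 61 of the 81 genes, as 73 entries of 300 bases each, from 250 before to 50 after a listed transcription start. Many of these starts carried a pyrimidine tract. The windows below run 5′ to 3′ on the sense strand from 60 bases before the listed start to 20 bases from it, and capitals mark the longest run of C and T that lies within 20 bases of the start. The set is shown because it spans a range of tract lengths. Rpl35, a protein near the exit of the peptide tunnel, has 18 pyrimidines in a row, and Rps10 has 13. Rps18 has 11, Rps6, the target of S6 kinase, has 10, Rps27 has 9 and Rpl27 has 5. All but Rpl27 lie above the median of 7 for the ribosomal protein entries.
Rps6, chr4:86857348-86857427, minus strand: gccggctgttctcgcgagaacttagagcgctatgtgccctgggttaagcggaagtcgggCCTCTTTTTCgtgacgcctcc
Rps10, chr17:27635225-27635304, minus strand: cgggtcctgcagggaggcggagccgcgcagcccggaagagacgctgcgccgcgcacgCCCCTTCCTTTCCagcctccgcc
Rps18, chr17:33955646-33955725, minus strand: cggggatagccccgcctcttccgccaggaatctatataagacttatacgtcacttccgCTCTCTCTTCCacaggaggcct
Rpl35, chr2:39005112-39005191, minus strand: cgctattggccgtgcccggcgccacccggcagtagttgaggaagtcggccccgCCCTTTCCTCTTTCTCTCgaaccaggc
Rps27, chr3:90213629-90213708, minus strand: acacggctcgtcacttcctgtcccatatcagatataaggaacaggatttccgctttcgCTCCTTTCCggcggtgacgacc
Rpl27, chr11:101442185-101442264, plus strand: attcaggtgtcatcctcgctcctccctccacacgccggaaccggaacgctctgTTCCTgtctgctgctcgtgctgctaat

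A run of at least 8 pyrimidines within 20 bases of the start was present in 42.5% of the 73 entries (95% Wilson interval 31.8 to 53.9%, which here and below covers counting error only). The same was true of 16.0% of all 32851 promoter entries, and of 15.4% of the 13438 entries of other coding genes with gene-end peaks in both lists. The longest run within that window had a median of 7 bases in the ribosomal protein entries against 5 in all entries. It reached 21 bases in Rpl7a, and 20 in Rpl27a and in Rpl34. With the window widened to 50 bases after the start, the share was 69.9% against 25.4% of all entries. Because several genes have more than 1 listed start, the 73 entries are not independent of each other.

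Fixed letters of known promoter motifs were then searched on both strands of the same 300 bases. TCTCGCG, the core of the element bound by BANP, a factor of CpG island promoters, was found in 19.2% of the ribosomal protein entries (11.8 to 29.7%), in 2.56% of all entries and in 4.87% of the other coding genes with peaks in both lists. It was present in 13 of the 61 genes: Rps2, Rps6, Rps13, Rps15a, Rps19, Rps28, Rpl7a, Rpl10a, Rpl12, Rpl26, Rpl27a, Rpl28 and Rpl35. The 4 windows below show it close to the start, with capitals on every match. On the opposite strand TCTCGCG reads CGCGAGA, and both overlap in the palindrome TCTCGCGAGA, which Rps28, Rpl12, Rps19 and Rpl26 all hold. Rps19, the gene most often mutated in Diamond-Blackfan anaemia, and Rpl26 each hold a further copy.
Rps19, chr7:24884532-24884611, plus strand: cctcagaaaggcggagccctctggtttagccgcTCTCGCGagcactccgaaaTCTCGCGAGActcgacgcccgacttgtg
Rps28, chr17:33824543-33824622, minus strand: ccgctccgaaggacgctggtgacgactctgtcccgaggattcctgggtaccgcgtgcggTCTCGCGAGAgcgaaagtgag
Rpl12, chr2:32961652-32961731, plus strand: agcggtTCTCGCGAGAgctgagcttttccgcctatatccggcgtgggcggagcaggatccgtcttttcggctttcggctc
Rpl26, chr11:68901506-68901585, plus strand: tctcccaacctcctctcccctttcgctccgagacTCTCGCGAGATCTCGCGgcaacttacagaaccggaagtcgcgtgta

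CCGGAAG, the core letters of ETS factors such as GABPA, was found in 34.2% of the ribosomal protein entries (24.4 to 45.7%) against 8.86% of all entries and 15.9% of the other coding genes with peaks in both lists. It was present in 24 of the 61 genes. The windows of Rpl31, Rpl37 and Rpl6, all of the large subunit, and of Rpl11, which with Rpl5 also binds the p53 regulator MDM2, are shown because the match, in capitals, lies within the printed bases on the sense strand. In Rpl31, Rpl11 and Rpl6 it lies just after the start.
Rpl31, chr1:39367791-39367870, plus strand: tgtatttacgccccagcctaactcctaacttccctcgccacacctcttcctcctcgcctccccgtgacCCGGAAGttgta
Rpl11, chr4:136053374-136053453, minus strand: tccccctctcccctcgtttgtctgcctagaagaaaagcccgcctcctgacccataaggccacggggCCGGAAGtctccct
Rpl37, chr15:5116553-5116632, plus strand: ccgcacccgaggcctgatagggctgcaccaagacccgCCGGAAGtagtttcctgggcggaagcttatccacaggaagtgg
Rpl6, chr5:121204441-121204520, plus strand: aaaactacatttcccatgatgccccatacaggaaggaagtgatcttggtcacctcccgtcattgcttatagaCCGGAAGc

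AAGATGG, the letters of YY1, was found in 15.1% of the entries (8.63 to 25.0%) against 6.34% of all, and GCGCATG of NRF1 in 12.3% (6.62 to 21.8%) against 3.91% of all. Against the other coding genes with peaks in both lists, whose shares were 6.58% for YY1 and 6.46% for NRF1, the lower bounds lay above the YY1 share and close to the NRF1 share. GGGCGG, the SP1 box, was in 57.5% of the ribosomal protein entries, above the 35.7% of all entries and with an interval (46.1 to 68.2%) that covers the 62.9% of the other genes with peaks. In the 100 bases before the start alone, SP1 was in 31.5% (interval up to 42.9%), below the 45.5% of those other genes. In that shorter window the YY1 share of 2.74% (0.755 to 9.45%) and the NRF1 share of 5.48% (2.15 to 13.3%) had intervals that cover those genes' 1.34% and 3.42%. The ETS share of 17.8% (10.7 to 28.1%) and the BANP share of 13.7% (7.61 to 23.4%) had intervals above their 8.36% and 2.35%. The E-box CACGTG was in 11.0% against 9.66% of those other genes, and TATAAA in 9.59% against 7.16%. The GATA letters AGATAA or TGATAA, those of the factor deleted in the study, were in 12.3% (6.62 to 21.8%) against 9.77% of the other genes with peaks and 18.6% of all entries. The 9 genes with GATA letters were Rpl3l, Rpl4, Rpl19, Rpl24, Rpl36a, Rpl41, Rps4x, Rps6 and Rps26. All 9 carried gene-end peaks in both lists, as did 48 of the 52 genes with an entry but no such letters. Among all 81 ribosomal protein genes the share was 93.8%, so 9 of 9 is near the background. At Rpl3l the gene-end peak lies beyond the last base, away from the listed starts. The gene-end peaks of Rpl19 also hold none of its listed starts. A match says only that these letters stand in the window.

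**Figure D1:**
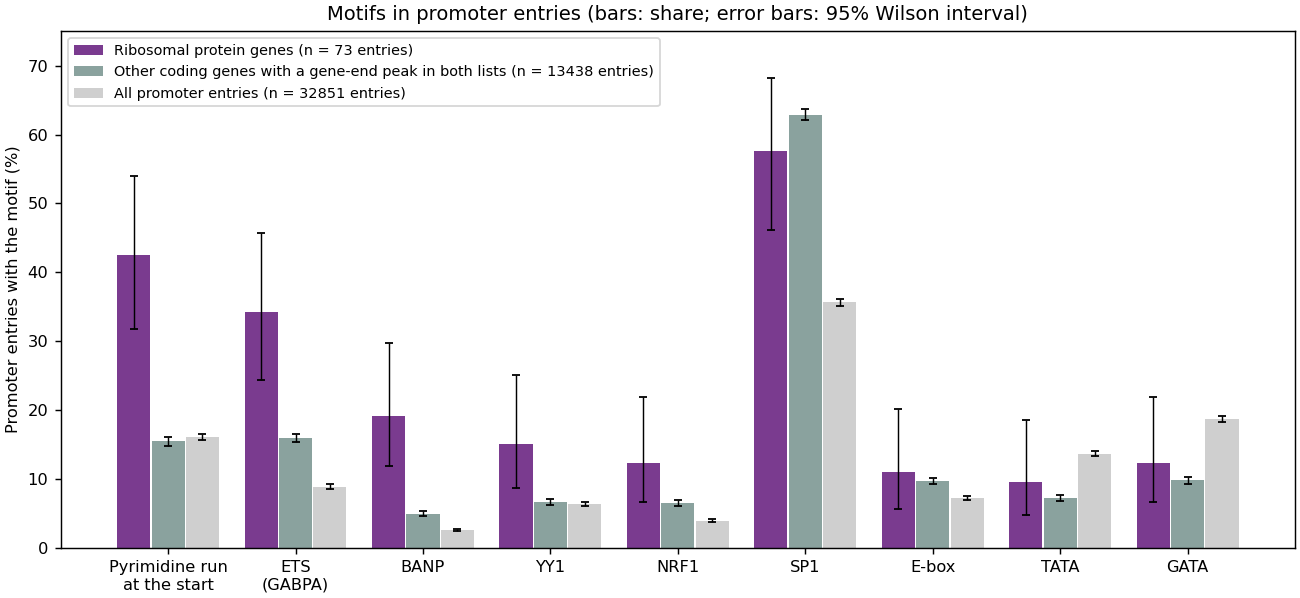
Share of promoter entries (%) with each motif, for the ribosomal protein genes (73 entries), other coding genes with a gene-end peak in both lists (13438) and all entries (32851); bars are shares and error bars 95% Wilson intervals. The ribosomal protein bars for the pyrimidine run, ETS and BANP stand at 42.5%, 34.2% and 19.2%, with intervals above both other bars, while the SP1 bar at 57.5% has an interval that covers the 62.9% of the other genes with peaks.

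Nearly every ribosomal protein gene had an open gene end in both genotypes. A gene-end peak was present in both lists at 76 of the 81 genes, or 93.8% (86.4 to 97.3%), beside 62.8% of all protein-coding genes. It was present in the Gata2WT list alone at 2 genes, Rpl10l and Rpl39l (2.29% of all genes), and in the Gata2cKO list alone at 0 (1.3% of all genes). Neither list had one at 3 genes, Rps2, Rpl17 and Rpl32l (33.6% of all genes). By subunit the peaks were in both lists at 47 of 51 large and 29 of 30 small subunit genes. Where the strand was known, a listed start lay inside a Gata2WT peak at 59 of 61 genes and a Gata2cKO peak at 57 of 61, beside 59.7% and 59% of the 17273 coding genes with an entry.

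The group gave 92 distinct gene-end peaks in Gata2WT and 88 in Gata2cKO. One peak was found at 63 genes in each list, and a pair at 15 genes in the first and 13 in the second. No gene had 3 or more. Of the 92 Gata2WT peaks, 4 overlapped no Gata2cKO peak (4.35%, beside 7.17% of all gene-end peaks of that list), and of the 88 Gata2cKO peaks 0 overlapped no Gata2WT peak (4.51% of all). Those 4 were the peaks at Rpl10l and Rpl39l and weak second peaks at an end of Rps14 (374 bp wide, −log10 q 2.72) and at an end of Rps3 (300 bp, 2.30). Both Rps3 and Rps14, proteins of the small subunit head and platform, had a far stronger peak in both lists at their other end. Some peaks lie near neighbours too: 27 of the 92 and 28 of the 88 also came within 1 kb of another coding gene. The same share over all gene-end peaks was not computed, so these counts are not read as a trait of the group.

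Peak strength is given as the deposited −log10 q. It grows with depth as well as with enrichment, and the lists were not scaled to each other, so the values of a gene stand side by side, Gata2WT first and Gata2cKO second, and no change is read from them. The strongest peaks of the group were those of Rpl27, Rplp2, Rps19 and Rps29 in the Gata2WT list. Rpl27, a large subunit protein, had a −log10 q of 133.3 with 165 fragments at the summit in the Gata2WT list, and 107.3 with 137 fragments in the Gata2cKO list. Rplp2, an acidic protein of the stalk that recruits elongation factors, had 125.5 in the Gata2WT and 82.4 in the Gata2cKO list. Its peak also reaches Pidd1, which starts head to head with it. Rps19, needed for small subunit maturation, had 118.6 with 194 fragments and 115.9 with 180 fragments. For Rps29, a small zinc-binding protein of the small subunit, the values were 113.1 and 101.2. In the Gata2cKO list the 3 strongest were Rps19, Rpl27 and Rps29, which were also among the 4 strongest of the Gata2WT list.

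Of the genes with peaks in both lists, the 4 weakest were Rpl19, Rpl38, Rps9 and Rpl35a in Gata2WT and Rpl38, Rpl19, Rpl8 and Rpl35 in Gata2cKO. Rpl19 had a peak beyond its last base with 11.4 and 6.09 and one near its first base with 2.20 and 7.54, so its strongest gene-end peak lay at opposite ends in the lists. Its 2 listed starts lie inside the span of the gene, and the peak that covers them (chr11:98026421-98027409 in the Gata2WT list) had 44.2, and its Gata2cKO counterpart 27.4. Rpl38, whose loss in mice alters axial patterning, had 18.5 in the Gata2WT and 7.06 in the Gata2cKO list at a peak that holds its start. Rps9 had 26.5 and 30.0, and Rpl35a, a large subunit protein, had 29.7 and 25.2. Rpl8, a protein near the peptidyl transferase centre, had 41.8 with 81 fragments in the Gata2WT list and 16.5 with 44 fragments in the Gata2cKO list. The values of Rpl35 were 31.3 and 23.2. Rpl41, the shortest protein of the ribosome, had a weak peak over its start (15.1 and 21.8) and a strong one (61.3 and 64.6) at its other end, which lies next to Zc3h10.

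Among the 78 genes with a gene-end peak in the Gata2WT list, the strongest peak per gene had a median −log10 q of 60.6, and among the 76 in the Gata2cKO list a median of 47.3. The other coding genes with gene-end peaks had medians of 45.0 and 36.9. In the top 20% of its list by −log10 q lay the peak of 71 of 78 genes (91.0%, 82.6 to 95.6%, beside 64.4% of all genes with peaks) and of 67 of 76 (88.2%, 79.0 to 93.6%, beside 58.8%). A −log10 q of at least 20 was reached at 74 of 78 genes in the Gata2WT list (75.7% of all) and 73 of 76 in the Gata2cKO list (70.6% of all). The median rank within the list was the 90.3rd percentile in the Gata2WT and the 88.5th in the Gata2cKO list, against 85.7 and 84.0 for the other coding genes. Median fold enrichment over the local background, the caller's second measure, was 9.81 and 9.68, closer to the 8.97 and 8.72 of the other genes. Of the 76 genes with peaks in both lists, 63 had the higher −log10 q in the Gata2WT list (82.9%, beside 79.4% of all such genes) and 46 the higher fold enrichment (60.5%, beside 58.2%), so these shares stood near the background of all genes.

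**Figure D2:**
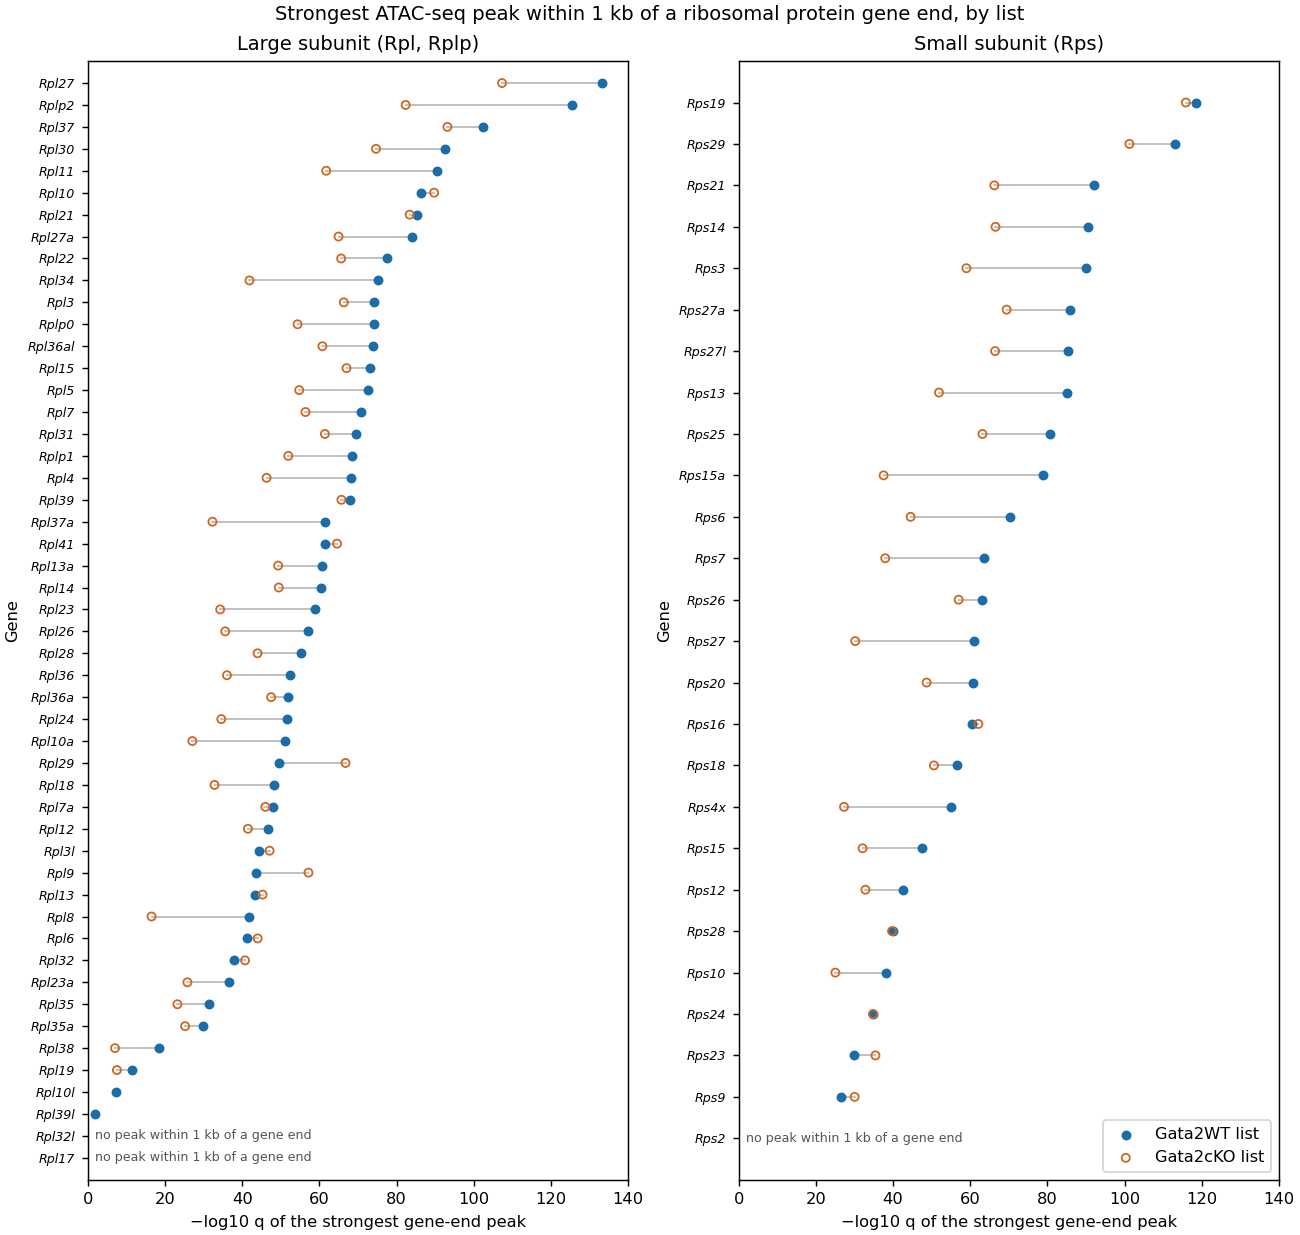
Deposited −log10 q of the strongest peak within 1 kb of a gene end for large subunit genes (left) and small subunit genes (right), with filled points for the Gata2WT list and open points for the Gata2cKO list; a line joins the points of a gene. Values run from 1.97 at Rpl39l to 133.3 at Rpl27, Rpl10l and Rpl39l have a filled point only, and Rpl17, Rpl32l and Rps2 have none. At Rpl13a, Rpl19 and Rps18 the joined points are peaks at opposite ends of the gene.

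Peaks of the group were of even width and mostly had a single summit. The strongest peak per gene had a median width of 956 bp in the Gata2WT list (quartiles 852 and 1067) and 918.5 bp in the Gata2cKO list (quartiles 802.75 and 1047). The other coding genes had similar medians of 986 and 940 bp with wider quartiles, 768 and 1217 bp in the Gata2WT list and 726 and 1169 bp in the Gata2cKO list. Between 600 and 1400 bp lay 74 of 78 genes (94.9%, beside 73.6% of all) and 72 of 76 (94.7%, beside 74.2%). Above 1500 bp there was 1 gene in each list (9.01% and 7.41% of all), and under 500 bp there were 2 and 1 (8% and 9.21% of all). One summit was recorded at 72 of 78 genes (92.3%, 84.2 to 96.4%, beside 67.4% of all) and at 69 of 76 (90.8%, 82.2 to 95.5%, beside 68.8%).

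The gene above 1500 bp was Rpl7, a large subunit protein, with a peak of 2187 bp and 2 summits in the Gata2WT list and 2095 bp and 3 summits in the Gata2cKO list. That peak also reaches an end of Rdh10, a retinol dehydrogenase gene. Counting second peaks as well, other wide peaks were at Rpl38 (1372 and 1415 bp, 3 summits in each list) and, in the Gata2WT list, Rpl23 (1465 bp, a weak second peak). Rpl36al had 1364 bp in the Gata2WT list and 1358 bp in the other. Narrow peaks were weak ones: in the Gata2WT list the second peaks of Rps3 (300 bp), Rpl19 (332 bp) and Rps14 (374 bp) and the start peak of Rpl39l (333 bp). In the Gata2cKO list the narrowest were second peaks of Rps10 (405 bp), Rpl3 (416 bp) and Rpl23 (526 bp) and the strongest gene-end peak of Rpl19 (493 bp).

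Of the 81 genes, 28 hold at least 1 small nucleolar RNA gene inside their span, a common arrangement in which the RNA is cut from an intron of the host. Of these hosts 26 (92.9%) had peaks in both lists, beside 50 of the 53 genes with no such RNA inside (94.3%). The strongest peaks of hosts had 1 summit at 26 of 26 in the Gata2WT and 25 of 26 in the Gata2cKO list. For the genes with no such RNA inside this was 46 of 52 and 44 of 50. Median −log10 q was 62.0 and 49.0 for hosts, against 58.8 and 45.8 for those other members. These differences were not tested.

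**Figure D3:**
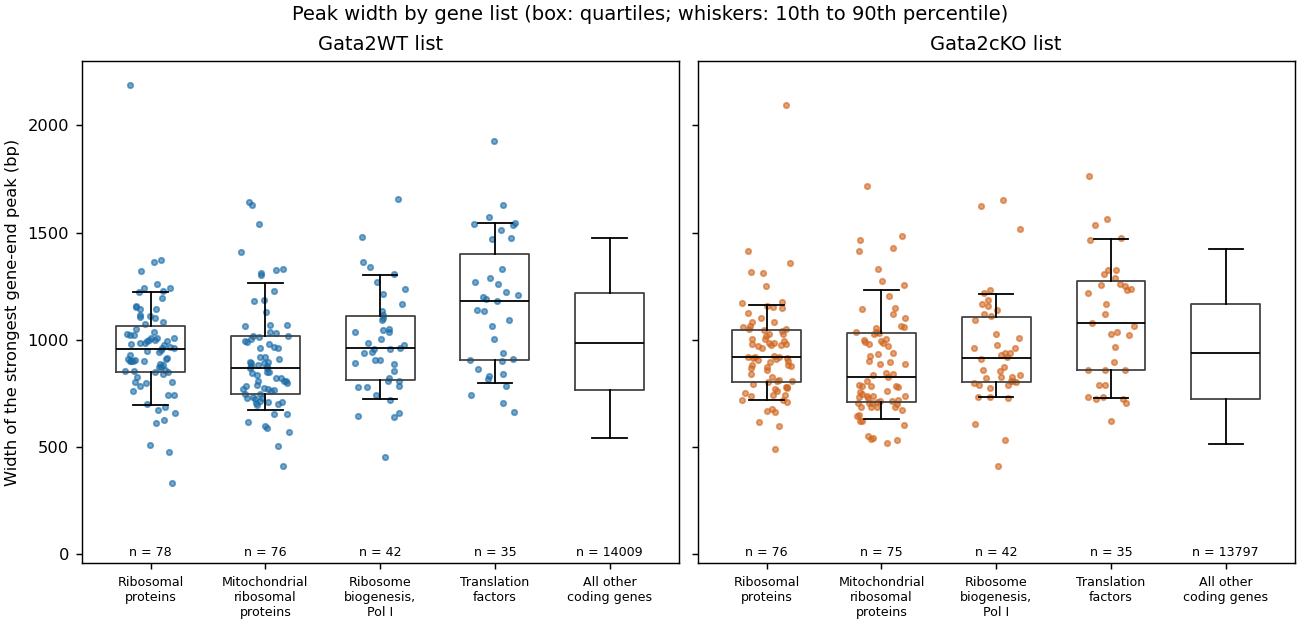
Width (bp) of the strongest gene-end peak per gene in the Gata2WT list (left) and the Gata2cKO list (right), by gene list; points are genes, boxes the quartiles with the median, and whiskers the 10th to 90th percentiles, with the number of genes with a peak under each box. Ribosomal protein genes have medians of 956 and 918.5 bp and a narrower box than the other coding genes (986 and 940 bp), and Rpl7 is the point above 2000 bp.

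Summits kept close to the same base in both lists, with a median distance near that of other coding genes. For the 76 genes with peaks in both, the highest summits of the overlapping pair lay a median of 29 bp apart, with an upper quartile of 50 bp, against 30 bp and 77 bp for the other coding genes. They lay more than 100 bp apart at 7 genes (9.21%, 4.53 to 17.8%, beside 19.7% of all such genes). The largest distance was 502 bp at Rpl38, whose peak has 3 summits in each list. Next came Rps7 with 258 bp, Rpl7a with 208 bp and Rps29 with 162 bp, followed by Rpl15 (145 bp), Rpl32 (126 bp) and Rps4x (118 bp). At Rpl10, Rpl26 and Rpl28 the distance was 1 bp.

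Relative to the nearest listed start, the summit lay on both sides. Among the 53 genes whose strongest peak held a listed start in the Gata2WT list, 23 summits lay upstream and 30 downstream, with a median of 12 bp downstream and a range from 306 bp upstream to 419 bp downstream. In the Gata2cKO list 27 of 51 lay upstream, with a median of 3 bp upstream. The other coding genes had medians of 41 and 24 bp downstream. Of their summits, 3755 of 8940 (42.0%, Gata2WT) and 3970 of 8854 (44.8%, Gata2cKO) lay upstream. The upstream shares of the group were not tested against these. Rpl10 and Rps19 had the farthest upstream summits in both lists (306 bp at each in the Gata2WT list, and 305 and 297 bp in the Gata2cKO list). Rpl38 had the farthest downstream one in the Gata2WT list, 419 bp after its start, and lay 83 bp upstream in the Gata2cKO list. Rps27 and Rps16, both of the small subunit, had Gata2WT summits within 3 bp of the start.

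**Figure D4:**
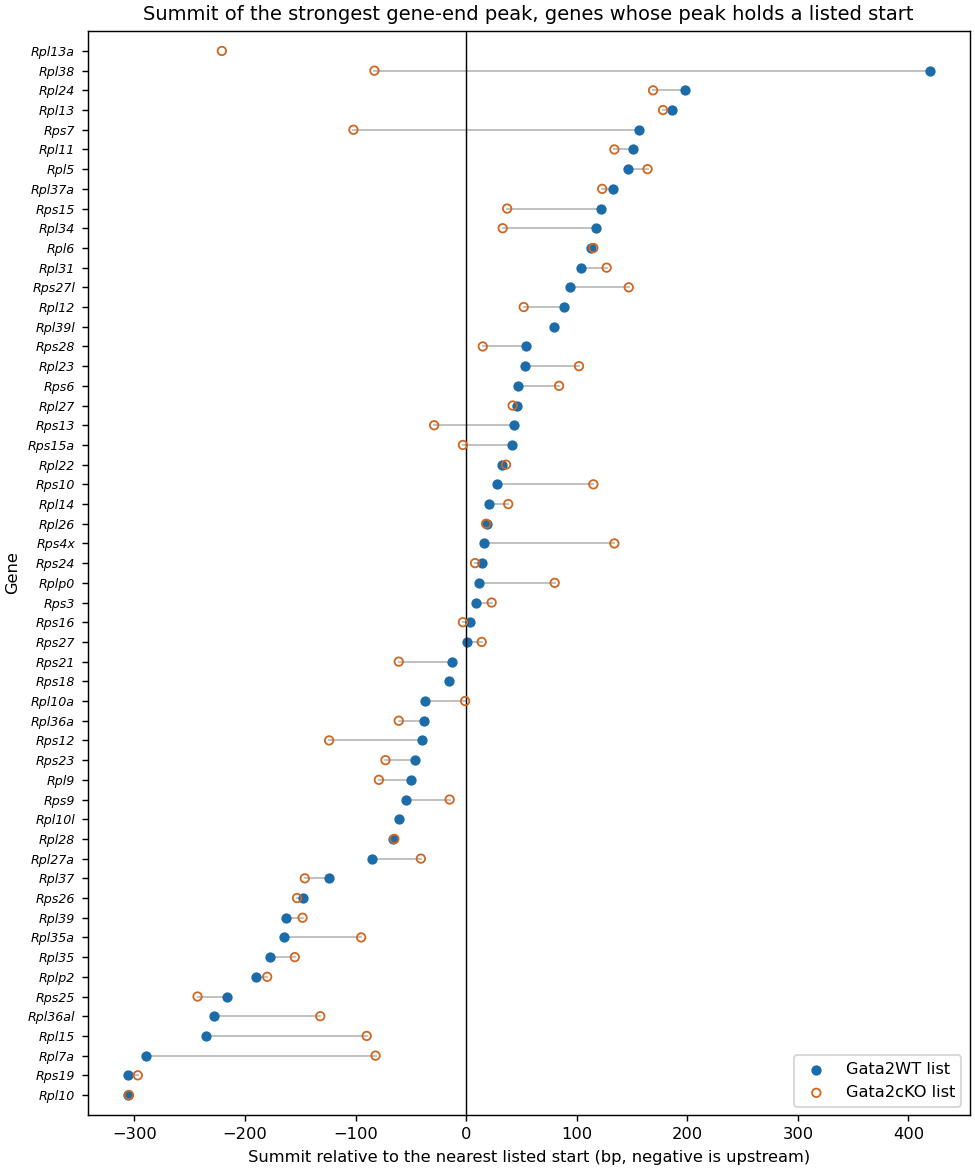
Distance (bp) from the nearest listed start to the highest summit of the strongest gene-end peak, for genes whose peak holds the start; filled points are the Gata2WT list, open points the Gata2cKO list, and negative values lie upstream. Points spread on both sides of the start from 306 bp upstream at Rpl10 and Rps19 to 419 bp downstream at Rpl38, and most pairs lie close together.

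The 6 duplicates whose symbol ends in l were the least uniform members, and their parents, the genes of the same symbol without the l, all had peaks in both lists. Rpl10l is an intronless copy of Rpl10 known for its role in spermatocytes, where it stands in for the X-linked parent. It had a single peak over its start in the Gata2WT list (chr12:66284241-66284717, 477 bp, −log10 q 7.31, 16 fragments at the summit), and in the Gata2cKO list the nearest peak lay 186298 bp away. The parent Rpl10, whose protein completes the large subunit, had 86.4 and 89.7. Rpl39l, a copy of Rpl39 likewise best known from the testis, had a narrow start peak in the Gata2WT list (chr16:10170104-10170436, 333 bp, −log10 q 1.97, 9 fragments), which ranked at percentile 8.70 of that list. In the Gata2cKO list the nearest peak to Rpl39l lay 17497 bp away. The parent Rpl39, a short protein that lines the exit tunnel, had 67.9 and 65.7. Both Gata2WT peaks are thus far below the peaks of their parents in the same list, and both have fewer fragments at the summit than the median peak, 19. Absence from the Gata2cKO list means only that no peak passed the authors' threshold there.

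The start windows of these pairs are shown since they are where the 4 genes differ in peak strength within the Gata2WT list. Capitals again mark the longest pyrimidine run within 20 bases of the start. The run was 3 bases in Rpl10, 5 in Rpl10l, 8 in Rpl39 and 7 in Rpl39l. In Rpl39 the count stops at the edge of the window, and the tract goes on upstream of it. The marked runs of Rpl10l, Rpl39 and Rpl39l end before the listed start, so by that start they lie outside the mRNA.
Rpl10, chrX:74270756-74270835, plus strand: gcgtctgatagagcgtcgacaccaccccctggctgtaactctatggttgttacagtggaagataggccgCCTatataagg
Rpl10l, chr12:66284382-66284461, minus strand: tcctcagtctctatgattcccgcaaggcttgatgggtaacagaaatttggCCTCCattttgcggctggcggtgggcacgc
Rpl39, chrX:37085203-37085282, minus strand: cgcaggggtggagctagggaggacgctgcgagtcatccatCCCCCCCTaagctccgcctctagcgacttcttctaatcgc
Rpl39l, chr16:10170168-10170247, plus strand: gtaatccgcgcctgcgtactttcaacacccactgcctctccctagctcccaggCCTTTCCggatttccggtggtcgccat

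Rpl3l, a copy of Rpl3 used in striated muscle, showed a gene-end peak in each list (44.3 and 47.1), but that peak lies beyond its last base (chr17:24736173-24737028 in the Gata2WT list) and reaches Msrb1. Neither of its 2 listed starts was inside a peak in either list. The parent Rpl3, at the peptidyl transferase centre, had 74.3 and 66.3. Rpl32l had no gene-end peak, and the nearest lay 2668 bp away in the Gata2WT and 2626 bp away in the Gata2cKO list. Its parent Rpl32 had 37.8 and 40.7. The remaining pair of duplicates were open in both lists. Rpl36al, a widely used copy of the X-linked Rpl36a, had 73.8 and 60.8 at a peak shared with Mgat2, and Rpl36a had 52.0 and 47.5. Rps27l, a copy of Rps27 induced by p53, had 85.3 and 66.4, and Rps27 had 60.8 and 30.2. The 4 X-linked genes all had peaks in both lists, Rps4x with 55.0 and 27.3.

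Near the edge of the 1 kb window, Rps27l was just inside, with its peak 954 bp from a gene end in the Gata2WT list and 973 bp in the Gata2cKO list. The strongest peak of Rpl22 (77.5 and 65.6) was also near the edge, its summit 1322 and 1326 bp from the first base. The other gene-end peak of Rpl22 was weak (2.45 and 3.56). Rpl17 and Rps2 were just outside. Rpl17, at the tunnel exit, had a peak inside its span 1193 bp from a gene end with a −log10 q of 72.6 in the Gata2WT list, and 1068 bp away with 36.3 in the Gata2cKO list. Rps2, a small subunit protein at the mRNA entry, had one 1403 bp (49.3) and 1353 bp (38.7) away, and this peak held its listed start, which lies head to head with the noncoding gene Snhg9. Of the 3 genes with no gene-end peak, Rps2 and Rpl17 therefore had strong peaks in both lists inside their span, and Rpl32l did not.

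Peak strength was also set beside the promoter letters, with no test. Medians are over the strongest gene-end peak of each gene with one in the list, which need not be the peak over its promoter. That peak held the nearest listed start at 53 of 59 genes in the Gata2WT and 51 of 57 in the Gata2cKO list. With CCGGAAG the median −log10 q was 67.9 over 23 Gata2WT peaks and 59.2 over 22 Gata2cKO peaks, and without it 55.1 over 36 and 45.3 over 35. For TCTCGCG the order was the other way, with 56.1 and 42.7 over the 12 of 13 genes that held it and had a gene-end peak. Those that did not hold it had 60.6 over 47 and 49.3 over 45. Rps2, which holds it, had no gene-end peak and is left out. Genes with a run of at least 8 pyrimidines had 60.6 and 45.3, and those without 59.7 and 49.7. The 9 genes with GATA letters had 55.0 and 46.3, against 60.5 over 50 and 47.7 over 48 of those without. Among these 9, Rpl3l, Rpl4, Rpl19 and Rpl41 entered with a peak that held no listed start in either list. The GATA medians therefore do not describe only peaks over the letters.

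Other genes of the translation machinery give a frame for these values. Of 9 cytosolic ribosomal proteins and partners whose symbols fall outside the rule, 8 had peaks in both lists and 1 in neither. Among them Rpsa, the laminin receptor homologue of the small subunit, had 105.1 and 48.6, and Rack1, a signalling scaffold on the small subunit, had 47.3 and 50.7. The 78 mitochondrial ribosomal protein genes had peaks in both lists at 75, the Gata2WT list alone at 1 and neither at 2. Ribosome biogenesis and RNA polymerase I genes had peaks in both lists at 42 of 43, and translation initiation and elongation factors at 35 of 35. The share with 1 summit, 92.3% and 90.8% for the ribosomal protein genes, was 86.8% and 77.3% for the mitochondrial ones, 78.6% and 83.3% for biogenesis genes and 62.9% and 65.7% for translation factors. Width quartiles in the Gata2WT list were 852 and 1067 bp for the ribosomal protein genes. They were 747.5 and 1016 bp for mitochondrial ones and 813.5 and 1112.75 bp for biogenesis genes. For translation factors they were 904.5 and 1401 bp, and for the genes outside the rule 837 and 1019.25 bp. Even width was therefore not particular to the group. Median −log10 q was lower for the ribosomal protein genes (60.6 and 47.3) than for biogenesis genes (74.6 and 56.9) and translation factors (70.9 and 59.3). For the mitochondrial ribosomal proteins it was 55.9 and 47.6. Summits of the overlapping pair lay a median of 21 bp apart for mitochondrial ribosomal proteins, 19 bp for biogenesis genes and 20 bp for translation factors. For the ribosomal protein genes this was 29 bp. More than 100 bp apart lay 10.7%, 11.9% and 22.9% of pairs, against 9.21%. Close summits were therefore not particular to the ribosomal protein genes. None of these differences between lists of genes was tested.

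Pseudogenes of ribosomal proteins seldom had peaks, as was the case for other pseudogenes. Of 310 ribosomal protein pseudogenes that lie more than 1 kb from any coding gene's end, 12 had a peak within 1 kb of an end in both lists (3.87%), 9 in the Gata2WT list alone, 2 in the Gata2cKO list alone and 287 in neither. Among 9272 other pseudogenes placed the same way, 3.44% had a peak in both lists. In the Gata2WT list alone the shares were 2.90% of the ribosomal protein pseudogenes and 1.88% of the others, and in the Gata2cKO list alone 0.645% and 0.971%. The strongest of these peaks, named after its values were seen, was at Rpl10a-ps3, with 25.9 in the Gata2WT and 53.0 in the Gata2cKO list. No source used here says how reads that match both a gene and its copies were placed, so values at pseudogenes and at the duplicate Rpl10l are uncertain.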

How the data were processed

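ATAC-seq was analysed from 4 samples of E14.5 ovarian germ cells, 2 Gata2WT and 2 Gata2cKO. Per the submitters' processing notes, the build was GRCm38 (mm10), and the tools named are MACS2 2.2.6, bedtools 2.29.2, Bowtie2 2.3.5.1, Trimmomatic 0.39, Picard 2.23.0 and SAMtools. Not given in the sources used here are the read shift, the handling of duplicates and the way replicates were combined. The authors deposited 1 narrow peak list per genotype, with fold enrichment (a ratio of the summit to its local background), −log10 p, −log10 q, an integer score and the summit's offset for each peak. The smallest −log10 p was 3.00 in both lists. These values are the authors', were not scaled between lists, and describe or rank peaks within a list.

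Rows with the same interval were merged to the highest summit, which took 58367 rows to 49394 peaks (Gata2WT) and 52241 to 44139 (Gata2cKO), without 10 and 5 rows on chromosome Y. Peaks within 1 kb of a gene's ends were assigned to it, and peaks that overlapped by 1 bp or more were shared. The gene table gives no exons or strand; strand came from the promoter table. Summit fragments were solved from fold and −log10 p and came out whole, within 0.001 in −log10 p, for 99.996% and 99.9955% of peaks. Intervals are 95% Wilson intervals. Python 3.11.15, pandas 2.3.3, numpy 2.4.6, scipy 1.17.1 and matplotlib 3.10.9 were used, and the steps were tested on simulated data. Reads per sample were not analysed here.

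The genes, lists, motifs and markers were chosen with earlier results of these data known. Named by rule were genes with a peak in 1 list alone or in neither, symbols ending in l and their parents, X-linked genes, the 4 strongest and 4 weakest per list, the 4 widest and 4 narrowest peaks per list, the 4 largest summit distances and genes with 3 or more peaks; further genes were named as examples after their values were seen. Polr1f, Polr1g and Polr1h were not found in the gene table. No promoter entry was matched for 20 genes. Some genes enter the counts and medians but are not reported here by name. Alternatives covered the overlap rule, window, threshold, list length, gene start, shared peaks, strength measure and promoter window.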

Additional observations from a re-analysis of the deposited data

How the results depend on the processing

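Of 99 values recomputed under other settings, 71 stayed within the limits and 28 moved, and for those that moved the cause was not tested. The count of genes with a peak in both lists was 74 with a 500 bp window, 78 with 2 kb, and 76 with peaks of −log10 q of at least 5 or with lists of equal length. It was lowest, at 55, when peaks that reach another coding gene were left out, with 3 genes in the Gata2WT list alone and 23 in neither. Genes open in the Gata2WT list alone were 1 in place of 2 with −log10 q of at least 5 and with equal lengths, where Rpl10l kept its peak and Rpl39l did not. In the Gata2cKO list alone there was 1 gene with the 500 bp window. Neither list had a peak at 1 gene with 2 kb, which brings in Rps2 and Rpl17. Single-list Gata2WT peaks, 4 at first, were 8 when summits had to lie within 250 bp and 2 with the 500 bp window. Single-list Gata2cKO peaks, 0 at first, were 2 with a 50% overlap, 4 by the 250 bp summit rule, 2 with the 2 kb window and 1 with −log10 q of at least 5. Rpl3l lost its peaks when the gene's start alone was used. The median Gata2WT strength rank was 87.8 by fold enrichment against 90.3, and 4 summit pairs in place of 7 lay over 100 bp apart by their closest summits. In the 100 bases before the start, the shares were 17.8% for ETS, 2.74% for YY1, 31.5% for SP1, 1.37% for TATA, 1.37% for the E-box, 5.48% for NRF1 and 2.74% for GATA letters, beside 8.36%, 1.34%, 45.5%, 2.55%, 4.42%, 3.42% and 2.65% of the other genes with peaks. The pyrimidine run was in 28.8% within 10 bases of the start (7.74% of those other genes), and in 69.9% in the window to 50 bases after it. This last window and the count of peaks that hold a listed start (57 of 61 genes in both lists) were chosen after seeing the data. No paired analysis was possible because each genotype has 1 combined list, and leaving out a replicate could not be done for the same reason. Depth is limited to the pooled lists: weak peaks such as those of Rpl10l (16 fragments) and Rpl39l (9 fragments) rest on few fragments.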
